A study of Homo sapiens with 8 samples.

Results

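The BCL2 family of apoptosis regulators was followed in Panc-1 cells depleted of PHF13 and treated with TGFβ. The members were the genes named BCL2, BCL2L1, MCL1, BAX, BAK1, BBC3, PMAIP1, BCL2L11, BID and BIK, and 9 of these 10 are rows of the deposited table of normalized counts, among 13307 genes. BIK, a BH3-only protein, has no row and was not analysed here. The members were chosen by name, with earlier results of these data known. After depletion, BCL2L1, BAX and BAK1 were higher and BID was lower, both without and with TGFβ. BCL2L11 was higher in both as well, but its calls were lost when some single libraries were left out. With TGFβ in siControl cells MCL1 alone passed the adjusted p, a call that was lost without either untreated siControl library (adjusted p of 0.1 and 0.0989, limma). BCL2L11 (adjusted p = 0.0306, limma) and BID (0.044) passed as well when the libraries of that comparison were fitted alone.

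Panc-1 is an established human line from a ductal pancreatic carcinoma. All cells were transfected with siRNA by a lipid reagent, either with a non-targeting sequence (siControl) or with siRNAs against PHF13 (siPHF13), so that untransfected cells are not part of the comparisons. PHF13 is a PHD finger protein that binds methylated lysine 4 of histone H3. Both kinds of cells were sequenced untreated and after 48 h in medium with 10 ng/ml of TGFβ, a cytokine that drives epithelial-mesenchymal transition, which gave 4 groups of 2 polyA RNA libraries. Given the study's methods, the PHF13 siRNAs comprised more than one duplex, and effects of the single duplexes cannot be told apart here. The labels do not say whether the libraries of a group came from separate cultures, so that p-values measure only the spread between these libraries, which may be technical.

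Proteins of the BCL2 family decide whether the outer membrane of mitochondria stays intact. BAX and BAK1 open pores in it and release cytochrome c, BCL2, BCL2L1 (BCL-xL) and MCL1 hold them back, and BH3-only proteins such as PUMA (BBC3), NOXA (PMAIP1), BIM (BCL2L11) and BID bind the guardians, with BIM and BID also able to act on BAX and BAK1 directly. Most of this control runs through protein binding, cleavage and turnover, which mRNA levels do not show. BCL-xL and MCL1 are the guardians most often found in carcinomas.

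Between 39196214 and 46700806 reads were counted on genes per library. PHF13 was measured at 1804.0 and 1662.4 normalized counts in siControl and at 524.2 and 558.3 in siPHF13 cells, a log2 fold change of -1.68, and its change with TGFβ was -1.66. All 4 keratins used as markers of the epithelial line (KRT7, KRT8, KRT18, KRT19) were present, with a summed level of 121557 to 203817 normalized counts per library. The leukocyte markers PTPRC and CD3E and the 3 endothelial markers have no row. CD68, also a lysosomal protein of other cells, was present and rose by 0.77 on the log2 scale after depletion. Of 4 fibroblast markers, COL1A1 and PDGFRB were present, and their sum was highest in siControl cells with TGFβ (15359 and 16471). Nearly all of it was COL1A1, with a mean of 15874 normalized counts there against 41.4 for PDGFRB. TGFβ changed COL1A1 by 2.23 on the log2 scale in siControl cells (adjusted p = 6.24e-11, limma). As in any bulk sample, fewer cells expressing a gene and less RNA per cell cannot be told apart.

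The promoters of BCL2L1, BAX and BAK1, the genes with the largest rises after depletion among members with over 100 normalized counts, are shown for context, as RefSeq gives them on GRCh38.p14 from 250 bases before to 50 bases after a transcription start. RefSeq entries were matched for 8 of the 9 measured members, all but MCL1, with 2 starts listed for BCL2L1 and 5 for BID. Capitals mark the GC box GGGCGG, the letters read by SP1 and related factors, and the E-box CACGTG, read by factors such as MYC and USF, each searched on both strands, and the pair of motifs did not overlap.
BCL2L1 upstream start, chr20:31723914-31724213 (- strand): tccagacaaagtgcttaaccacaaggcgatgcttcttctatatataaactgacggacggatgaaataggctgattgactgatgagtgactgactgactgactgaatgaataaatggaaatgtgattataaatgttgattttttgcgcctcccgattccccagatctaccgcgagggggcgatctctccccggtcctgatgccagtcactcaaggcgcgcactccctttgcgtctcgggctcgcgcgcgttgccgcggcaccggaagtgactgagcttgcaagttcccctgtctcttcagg
BCL2L1 downstream start, chr20:31722819-31723118 (- strand): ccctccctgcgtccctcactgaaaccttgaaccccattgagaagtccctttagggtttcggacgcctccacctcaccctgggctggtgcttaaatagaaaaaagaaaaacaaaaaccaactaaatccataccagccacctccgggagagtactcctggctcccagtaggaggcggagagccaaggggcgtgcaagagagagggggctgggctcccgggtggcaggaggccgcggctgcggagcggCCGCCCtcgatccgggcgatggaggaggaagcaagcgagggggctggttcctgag
BAX, chr19:48954625-48954924 (+ strand): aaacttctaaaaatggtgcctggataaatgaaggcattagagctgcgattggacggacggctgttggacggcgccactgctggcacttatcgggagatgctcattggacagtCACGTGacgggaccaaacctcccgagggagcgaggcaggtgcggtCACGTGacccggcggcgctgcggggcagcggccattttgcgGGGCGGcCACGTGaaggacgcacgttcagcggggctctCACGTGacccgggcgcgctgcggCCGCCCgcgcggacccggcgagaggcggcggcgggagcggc
BAK1, chr6:33580227-33580526 (- strand): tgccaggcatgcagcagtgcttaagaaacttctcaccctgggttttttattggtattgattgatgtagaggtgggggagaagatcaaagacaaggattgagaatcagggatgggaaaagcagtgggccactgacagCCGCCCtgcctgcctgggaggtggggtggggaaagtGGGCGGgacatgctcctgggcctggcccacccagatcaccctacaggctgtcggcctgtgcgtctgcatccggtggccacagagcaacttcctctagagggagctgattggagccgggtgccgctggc

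The BAX promoter held 4 E-boxes, 2 GC boxes and 2 CCAAT boxes (CCAAT). That of BAK1 held 2 GC boxes and 2 CCAAT boxes, and no E-box. Of the BCL2L1 windows, the upstream one held neither GC box nor E-box and the downstream one held 1 GC box. The upstream window held 2 matches to the TATA box TATAAA, not marked above, and no other window shown held one. Over 35116 RefSeq promoters of the same length, 45.0% held a GC box, 34.6% a CCAAT box, 11.5% a TATA box and 7.3% an E-box. The 5 partly overlapping windows of BID, which went down, held 0 to 4 GC boxes each, at a GC content of 48.7% to 78.0% against a median of 58.7% over all promoters, and 2 of them held an E-box. A match of letters is a description, and no binding was measured in these libraries.

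Levels were compared between genes only after dividing the mean normalized count by the length of the gene's exons in kb. On that scale MCL1 was the highest member in siControl cells, at 2756 normalized counts per kb, ahead of BCL2L1 at 1749. BAK1 followed at 1652, BAX at 776, BID at 725, PMAIP1 at 447, BCL2L11 at 271, BBC3 at 78.6 and BCL2 at 1.55. In siPHF13 cells the first pair changed places: BCL2L1 stood at 3493 and MCL1 at 3108 normalized counts per kb. The same exchange was seen with TGFβ, where MCL1 led BCL2L1 by 3261 to 1719 in siControl cells and trailed it by 3382 to 3641 in siPHF13 cells. Dividing by the longest transcript in place of all exons left the order of this pair's group means as given, but with a narrow lead. In siPHF13 cells BCL2L1 then stood at 4501 and MCL1 at 4250, and with TGFβ at 4692 and 4624. The order with TGFβ did not hold in siPHF13 replicate 2 taken alone, where MCL1 led on this scale. That library held 14519.2 normalized counts of BCL2L1 and 21303.8 of MCL1, with longest transcripts of 3257 and 4550 bases. A level per kb also depends on which isoforms are expressed, which gene counts do not show.

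**Figure D1:**
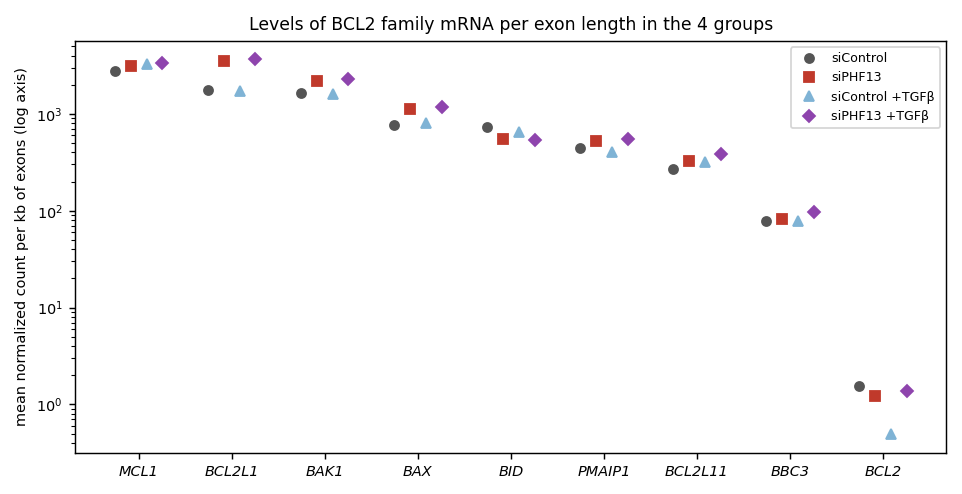
Mean normalized count per kb of exons (vertical log axis) of the 9 measured members in the 4 groups, each the mean of 2 libraries. MCL1 lies above BCL2L1 in both siControl groups (circles and triangles) and below it in both siPHF13 groups (squares and diamonds), and BCL2 lies far below all other members.

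BCL2L1 encodes BCL-xL, which restrains BAX and BAK1, and its splice forms include a short one that promotes death. The table holds 1 value per gene, so that these forms cannot be told apart. The gene (GRCh37 chr20:30252255-30311792, - strand) was measured at 7473.0 and 7207.2 normalized counts in siControl cells and at 14663.1 and 14654.7 in siPHF13 cells. With TGFβ it was at 7588.6 and 6836.8 in siControl cells and at 16041.8 and 14519.2 in siPHF13 cells. All 4 libraries of depleted cells lay above all 4 libraries of control cells, and TGFβ-treated and untreated libraries overlapped within either siRNA. The log2 fold change of depletion was 1.00 ± 0.07 (SE, n = 2 libraries per group) without TGFβ, with an adjusted p of 9.54e-08 in limma, and 1.08 ± 0.07 with TGFβ, with a limma adjusted p of 3.96e-08. In fold terms these were 1.997 and 2.119. TGFβ changed it by -0.03 in siControl cells (95% interval -0.17 to 0.12) and by 0.06 in siPHF13 cells (-0.09 to 0.20), and neither passed the test. The antisense transcript ABALON shares 1735 exon bases with BCL2L1, and the strand setting of the counting is not given in the sources used here, so reads of the one could count for the other.

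**Figure D2:**
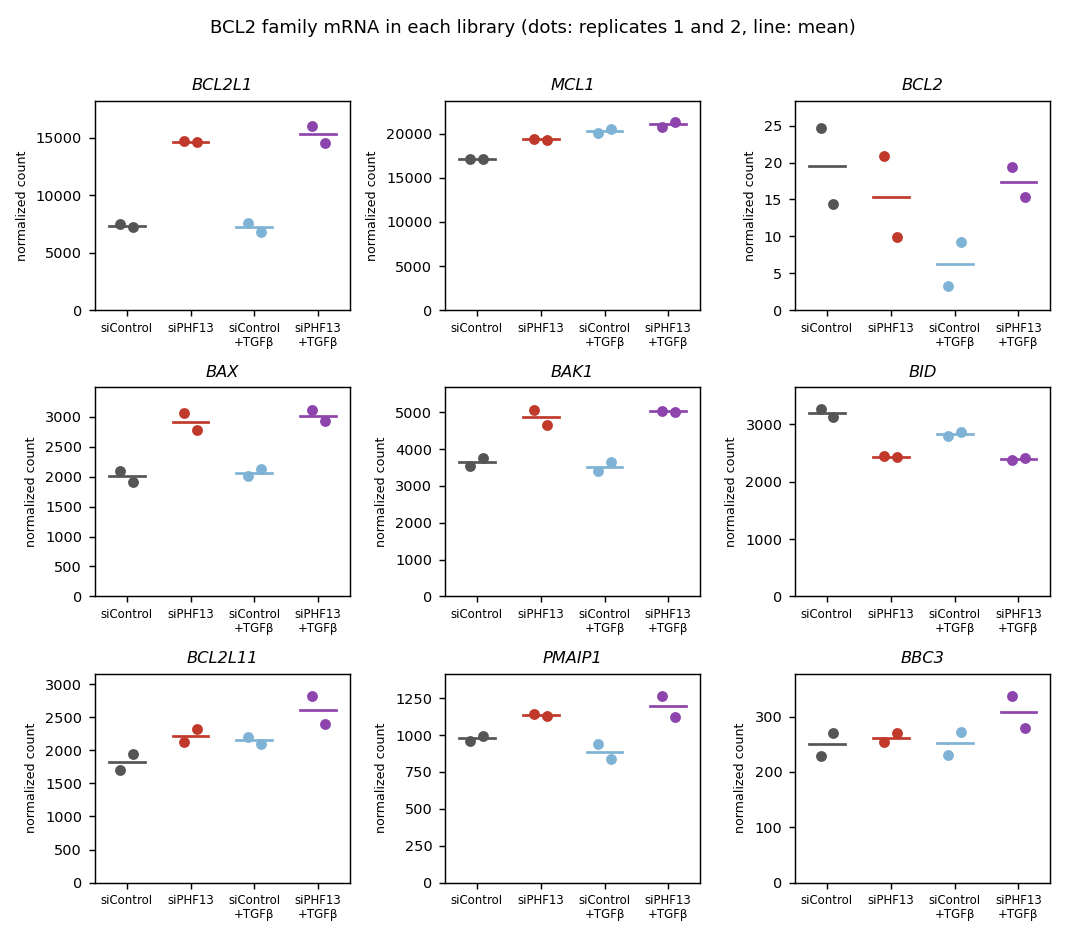
Normalized counts (vertical axes, each from 0) of the 9 measured members in each of the 8 libraries, with dots for replicates 1 and 2 and a line for their mean. The siPHF13 libraries lie above all siControl libraries for BCL2L1, BAX, BAK1 and PMAIP1, and below them for BID.

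MCL1 encodes a guardian with a short-lived mRNA and protein. The gene (chr1:150533371-150552214, - strand) was at 17147.3 and 17152.5 normalized counts in siControl cells, at 20083.7 and 20497.1 with TGFβ, at 19430.5 and 19244.6 in siPHF13 cells and at 20777.7 and 21303.8 in siPHF13 cells with TGFβ. The untreated siControl libraries were the lowest, and no groups overlapped. TGFβ raised it in siControl cells by 0.24 ± 0.05 on the log2 scale (adjusted p = 0.00742, limma), and depletion raised it without TGFβ by 0.17 ± 0.05 (adjusted p = 0.0175, limma). With TGFβ the depletion estimate was 0.05 (adjusted p = 0.449, limma), and 0.16 after the correction for GC content and length (adjusted p = 0.013, limma). The rise with TGFβ missed the threshold without either siControl library (adjusted p of 0.1 without replicate 1 and 0.0989 without replicate 2, limma). The rise with depletion missed it without any 1 of its 4 libraries, with limma adjusted p-values of 0.116 without either siControl library, 0.085 without siPHF13 replicate 1 and 0.0638 without siPHF13 replicate 2. MCL1 shares 328 exon bases with ADAMTSL4-AS1 on the same strand, which has a row of its own.

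Within each library, the normalized counts of BCL2L1 were divided by those of MCL1, a ratio not corrected for length whose change between libraries alone can be read. It was 0.436 and 0.420 in siControl, 0.378 and 0.334 in siControl with TGFβ, 0.755 and 0.761 in siPHF13 and 0.772 and 0.682 in siPHF13 with TGFβ. Every siPHF13 library lay above every siControl library.

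BCL2, the founding guardian (chr18:60790579-60987361, - strand), was close to the lower end of the table. It had 26 and 16 reads in siControl, 3 and 9 in siControl with TGFβ, 21 and 10 in siPHF13, and 18 and 16 in siPHF13 with TGFβ. The libraries of siControl cells with TGFβ held the fewest reads, and the other 3 groups overlapped. On the log2(value + 1) scale the change with TGFβ was -1.59 ± 0.66 in siControl cells (adjusted p = 0.126, limma), and that with depletion under TGFβ was 1.47 ± 0.66 (adjusted p = 0.078, limma). Both contrasts use the same pair of low libraries. The latter passed without siControl TGFβ replicate 2, which held 9 reads, at 2.11 (adjusted p = 0.0395, limma), and after a correction for GC content and length, at 1.65 (adjusted p = 0.0476, limma), but not when that correction was joined with a replicate block (adjusted p = 0.0595, limma). Counts of this size do not allow a direction to be given.

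BAX and BAK1 form the pore, and either is known to be enough for release of cytochrome c. BAX (chr19:49458072-49465055, + strand) was at 2099.0 and 1915.5 normalized counts in siControl and 3059.5 and 2779.8 in siPHF13 cells. With TGFβ it was at 2004.2 and 2132.2 in siControl and 3113.4 and 2926.0 in siPHF13 cells. Every depleted library lay above every control library, by 0.54 ± 0.08 on the log2 scale without TGFβ (adjusted p = 8.14e-05, limma) and 0.55 ± 0.08 with it (adjusted p = 6.54e-05, limma). These folds of 1.45 and 1.46 were under the threshold of 0.58 on the log2 scale that the study's methods set for a changed gene. The estimate passed it when siControl replicate 1 (0.61) or siPHF13 replicate 2 (0.61) was left out, and with TGFβ when replicate 2 of siControl (0.59) or of siPHF13 (0.59) was. Correction for GC content and length, with a replicate block, lowered the estimate to 0.40 without TGFβ and to 0.34 with it.

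BAK1 (chr6:33540324-33548070, - strand) was at 3553.0 and 3754.5 normalized counts in siControl and 5076.7 and 4666.9 in siPHF13 cells. With TGFβ it was at 3404.6 and 3647.3 in siControl and 5050.0 and 5000.2 in siPHF13 cells. The depleted libraries again lay above all control libraries, by 0.41 ± 0.07 (adjusted p = 0.000227, limma) and 0.51 ± 0.07 (adjusted p = 3.25e-05, limma) on the log2 scale. Correction for GC content and length, with a replicate block, lowered these estimates to 0.33 and 0.38. BAK1 has the processed pseudogenes BAK1P1 and BAK1P2, without rows in the table, and reads shared with them could be lost or added. The TGFβ estimates of both pore-forming genes lay between -0.05 and 0.05, and the adjusted p-values (limma) between 0.684 and 0.856.

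Among the BH3-only genes BID went the other way. BID (chr22:18216904-18257536, - strand) is cleaved by caspase-8 and so ties death receptors to mitochondria. It was at 3269.4 and 3137.3 normalized counts in siControl, 2806.3 and 2871.7 in siControl with TGFβ, 2442.9 and 2436.5 in siPHF13, and 2372.8 and 2420.7 in siPHF13 with TGFβ. Both siPHF13 groups lay below both siControl groups. Depletion lowered it by 0.39 ± 0.07 on the log2 scale without TGFβ, where the log2 fold change was -0.39 (adjusted p = 0.000255, limma), and the value with TGFβ was -0.24 ± 0.07 (adjusted p = 0.00687, limma). In siControl cells its TGFβ estimate was -0.17 ± 0.07 (adjusted p = 0.0933, limma), without overlap of the libraries.

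BCL2L11 encodes BIM, which binds every guardian of the family. The gene (chr2:111876955-111926021, + strand) was at 1707.2 and 1948.0 normalized counts in siControl, 2204.7 and 2097.2 in siControl with TGFβ, 2122.6 and 2319.1 in siPHF13, and 2818.7 and 2402.4 in siPHF13 with TGFβ. The untreated siControl libraries were the lowest and the TGFβ-treated siPHF13 libraries the highest. Depletion raised it by 0.28 ± 0.09 without (adjusted p = 0.022, limma) and by 0.28 ± 0.09 with TGFβ (adjusted p = 0.0239, limma). The first missed the threshold without siControl replicate 1 (adjusted p = 0.232, limma) or siPHF13 replicate 2 (0.159). The second missed it without siControl TGFβ replicate 1 (adjusted p = 0.0527, limma) or replicate 2 (0.125) and without siPHF13 TGFβ replicate 1 (0.176). Its TGFβ estimates were 0.24 in siControl (adjusted p = 0.104, limma) and 0.23 in siPHF13 cells (adjusted p = 0.262, limma). The first passed without replicate 1 (adjusted p = 0.0373, limma) or replicate 2 (0.0365) of siPHF13 with TGFβ, which change only the shared estimate of spread, and the second without the latter (0.0452), at 0.35. The antisense transcript MIR4435-2HG shares 727 exon bases with it.

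PMAIP1 encodes NOXA, which is selective for MCL1. The gene (chr18:57567228-57571537, + strand) was at 959.8 and 994.7 normalized counts in siControl and 1142.9 and 1131.5 in siPHF13 cells. With TGFβ it was at 939.0 and 837.2 in siControl and 1266.3 and 1123.2 in siPHF13 cells. All depleted libraries lay above all control libraries. The depletion estimate was 0.22 ± 0.10 without TGFβ (adjusted p = 0.0737, limma), and depletion raised the gene by 0.43 ± 0.10 with TGFβ (adjusted p = 0.00199, limma). The estimate without TGFβ passed the threshold when the 4 libraries were fitted alone (adjusted p = 0.0299, limma) and when replicate 1 (0.0487) or replicate 2 (0.0475) of siPHF13 with TGFβ was left out. The test of the difference between these effects gave 0.21 (adjusted p = 0.701, limma).

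BBC3 encodes PUMA, a main effector of p53, which Panc-1 cells are known to carry in mutant form. The gene (chr19:47724079-47736023, - strand) was at 229.5 and 271.2 normalized counts in siControl, 230.7 and 272.6 in siControl with TGFβ, 253.6 and 270.3 in siPHF13, and 337.9 and 279.1 in siPHF13 with TGFβ. Only the last group lay above the others, and the other 3 overlapped. The depletion estimates were 0.07 ± 0.16 (adjusted p = 0.75, limma) and, with TGFβ, 0.29 ± 0.16 (adjusted p = 0.15, limma), with 95% intervals of -0.28 to 0.42 and -0.06 to 0.64.

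**Figure D3:**
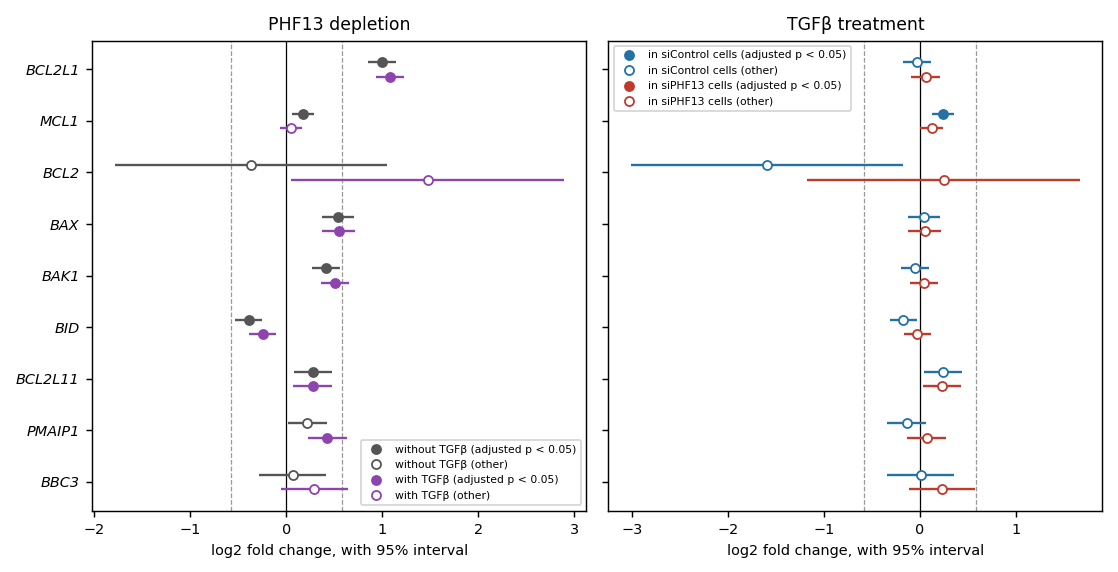
Log2 fold change with 95% interval of the 9 measured members for PHF13 depletion without and with TGFβ (left) and for TGFβ in siControl and siPHF13 cells (right), from limma on 8 libraries. Filled points have an adjusted p under 0.05 and dashed lines mark 0.58 either way: only BCL2L1 lies past a dashed line with a filled point, and the intervals of BCL2 are the widest.

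Counted over the family, depletion without TGFβ gave 1 changed member, BCL2L1, where changed means that limma's adjusted p was under 0.05 and that the log2 fold change exceeded 0.58 in either direction. Of all genes, 18.4% were changed by this rule. By the adjusted p alone 5 members rose and 1 fell, against 23.1% of all genes that rose and 24.3% that fell. The median log2 fold change of the 9 members was 0.22, and that of all genes was -0.0009. With TGFβ, depletion gave 1 changed member (20.5% of all genes), with 5 that rose (24.5%) and 1 that fell (25.9%), and a median of 0.43 against 0.0034. BCL2L1, BAX, BAK1 and BCL2L11 rose and BID fell in both, MCL1 passed in the first and PMAIP1 in the second. The difference between both effects was -0.12 for MCL1 and 0.21 for PMAIP1 and passed for neither (adjusted p of 0.695 and 0.701, limma).

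TGFβ in siControl cells gave 0 changed members in limma, against 4.79% of all genes. By the adjusted p alone 1 member rose (9.21% of all genes) and 0 fell (6.67%), and 4 of 9 had an unadjusted p under 0.05. The share of all genes with such an unadjusted p was not counted for any comparison, so that number cannot be read as a trait of the family. edgeR and DESeq2 also gave 0 changed members. In siPHF13 cells TGFβ gave 0 changed members (1.35% of all genes), with 0 risen (2.22%) and 0 fallen (0.857%) in limma, edgeR and DESeq2 alike, and 2 had an unadjusted p under 0.05, MCL1 and BCL2L11. The lowest adjusted p there was 0.262. The medians of the members were -0.03 and 0.07.

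Whether TGFβ acted differently in depleted cells was tested as the difference between both responses. It gave 0 changed members in limma (0.308% of all genes), with 0 higher (0.0902%) and 0 lower (0.323%), 0 at an unadjusted p under 0.05, and 0 in edgeR and DESeq2. The lowest adjusted p was 0.584. For BCL2L1 the difference was 0.09 with a 95% interval of -0.12 to 0.29, for MCL1 it was -0.12 (-0.29 to 0.04) and for BID 0.15 (-0.05 to 0.35). The contrasts share libraries: depletion without TGFβ and TGFβ in siControl cells use the same untreated siControl pair, and depletion with TGFβ uses the treated pair.

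BCL2 had the widest range of group means on the log2 scale, 1.59, and the genes most like it over the 8 libraries, counting genes whose mean reached 100, were CSRP2BP (Pearson r = 0.97), HSPA14 (0.97) and EYA1 (0.97). As BCL2 had few reads, the same was done for BCL2L1, chosen after its values were seen, whose group means spanned 1.08: VGF, PRKCSH and ISG20L2 each had an r of 0.997. The 8 points fall into depleted and control libraries, a step that BCL2L1 and these 3 genes share, and the correlations are given as a description.

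The rest of the pathway was followed in lists set by function. Their counts by the adjusted p stand against 23.1% of all genes that rose and 24.3% that fell after depletion without TGFβ, and 24.5% and 25.9% with it. Of 15 other BCL2 proteins 13 have a row. By the adjusted p 3 rose and 2 fell after depletion without TGFβ, and their median was -0.06 on the log2 scale. BCL2L2, which encodes the guardian BCL-w, was at 1643.7 and 1602.0 normalized counts in siControl and 880.3 and 839.5 in siPHF13 cells, with a change of -0.92 ± 0.09 (adjusted p = 1.44e-06, limma) and of -0.80 with TGFβ. It thus fell while its relative BCL2L1 rose. BNIP1, a SNARE protein of the endoplasmic reticulum with a BH3-like stretch, changed by -0.71 (adjusted p = 0.00037, limma). BCL2L10 held 2 and 1 reads in siControl and 61 and 23 in siPHF13 cells. With TGFβ it held 1 and 6 reads in siControl and 38 and 27 in siPHF13 cells. Its change was 4.03 ± 0.80 (adjusted p = 0.000964, limma), and 3.12 with TGFβ (adjusted p = 0.00503, limma). Both estimates rest on few reads.

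BMF, a BH3-only protein held on the cytoskeleton, responded to both. It was at 626.9 and 544.2 normalized counts in siControl, 1002.6 and 1108.8 in siPHF13, 1927.6 and 2041.7 in siControl with TGFβ, and 2232.5 and 1890.3 in siPHF13 with TGFβ. The untreated groups were apart, and the treated groups overlapped. TGFβ raised it by 1.76 ± 0.10 on the log2 scale in siControl cells (adjusted p = 7.97e-08, limma) and by 0.96 ± 0.10 in siPHF13 cells (adjusted p = 8.74e-05, limma). Depletion raised it by 0.85 without TGFβ (adjusted p = 1.69e-05, limma) and its estimate with TGFβ was 0.05. The responses to TGFβ differed by -0.80 ± 0.15 (adjusted p = 0.0316, limma). This difference missed the threshold in 6 of the 8 cases with 1 library left out, those of the 4 siControl libraries and of the untreated siPHF13 pair, and the highest adjusted p (limma) was 0.272, without siControl replicate 2.

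**Figure D4:**
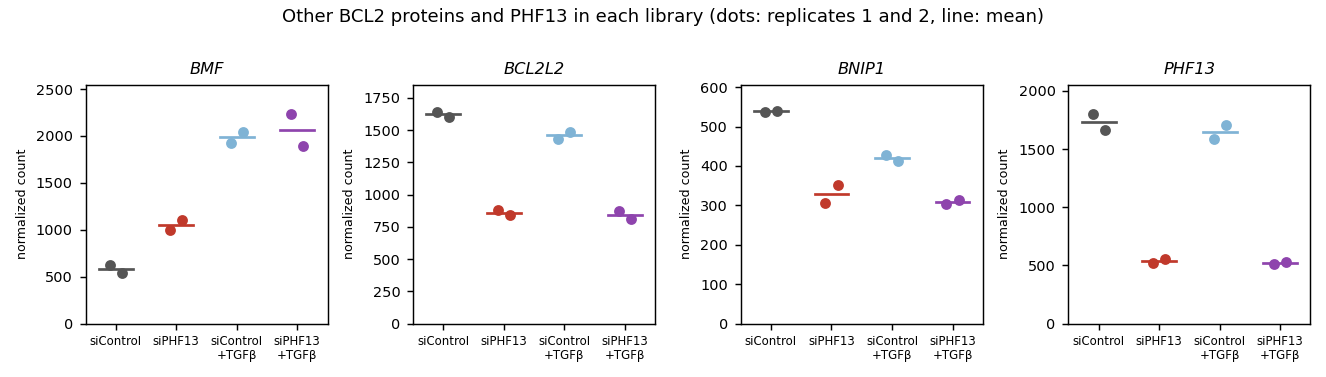
Normalized counts (vertical axes, each from 0) of BMF, BCL2L2, BNIP1 and the siRNA target PHF13 in each of the 8 libraries, with dots for replicates 1 and 2 and a line for their mean. BMF is lowest in untreated siControl cells and between 1890.3 and 2232.5 in both TGFβ groups, and BCL2L2, BNIP1 and PHF13 are lower in both siPHF13 groups.

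Downstream of the pore, 13 genes of mitochondrial release and the apoptosome were measured, of which 2 rose and 4 fell after depletion without TGFβ (median -0.14). CYCS, cytochrome c itself, changed by 0.61 ± 0.10 (adjusted p = 0.000232, limma), from a mean of 10406 to 15893 normalized counts. APAF1, the scaffold that cytochrome c binds, changed by -0.62 ± 0.09 (adjusted p = 4.98e-05, limma), and the executioner caspase gene CASP6 by -0.67 ± 0.17 (adjusted p = 0.00594, limma). CASP6 missed the threshold without siPHF13 replicate 1 (adjusted p = 0.0562, limma). With TGFβ the changes were 0.63 for CYCS, -0.60 for APAF1 and -0.71 for CASP6, the last again not past the threshold without siControl TGFβ replicate 2 (adjusted p = 0.0627, limma). Of 7 inhibitors of apoptosis 1 rose and 3 fell in each depletion comparison. BIRC3 (cIAP2) changed by -1.71 ± 0.07 (adjusted p = 8.82e-10, limma), from a mean of 43178 to 13214 normalized counts, and BIRC7 (livin) by 0.73 ± 0.13 (adjusted p = 0.000396, limma).

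Upstream of BID, 4 of 10 genes of the death receptor arm fell (24.3% of all genes) and 0 rose (23.1%) after depletion without TGFβ by limma's adjusted p (median -0.26). The receptor genes FAS and TNFRSF10B changed by -1.46 ± 0.10 (adjusted p = 9.76e-08, limma) and -0.68 ± 0.07 (adjusted p = 3.08e-06, limma), and with TGFβ by -0.93 and -0.71. CASP10, a relative of caspase-8, had group means of 16.9 to 51.1 normalized counts and changed by -1.51 with TGFβ in siControl cells (adjusted p = 0.0201, limma) and by 1.26 with depletion under TGFβ (adjusted p = 0.0177, limma). Both rest on the low TGFβ-treated siControl pair and were past the threshold no longer without its replicate 2 (adjusted p of 0.1 and 0.0913, limma). The first was also lost without siControl replicate 1 (adjusted p = 0.224, limma) and the second without siPHF13 TGFβ replicate 2 (0.124).

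Among 9 transcription factors known to act on BH3-only genes, 3 rose and 2 fell after depletion without TGFβ. JUN, a part of AP1, rose by 0.84 ± 0.08 (adjusted p = 1.14e-06, limma). FOXO1, known to drive BIM and PUMA, changed by -0.94 ± 0.26 (adjusted p = 0.0094, limma) and by -1.28 with TGFβ. The first of these missed the threshold without siControl replicate 2 (adjusted p = 0.068, limma) and without siPHF13 replicate 1 (0.139), where it was -0.48. Depletion with TGFβ changed E2F1 by 0.76 (adjusted p = 8.72e-06, limma) and FOXO3 by -0.68 (adjusted p = 1.23e-06, limma). Depletion without TGFβ changed E2F1 by 0.29 (adjusted p = 0.0133, limma) and FOXO3 by -0.50 (adjusted p = 1.98e-05, limma).

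Of 15 targets of p53 other than members, with TIGAR in the table under its older name C12orf5, 4 rose and 6 fell after depletion without TGFβ (median 0.03). TP53INP1 changed by -1.59 ± 0.12 (adjusted p = 2.65e-07, limma), FAS as above, and CDKN1A, the inhibitor of cyclin-dependent kinases p21, by -1.05 ± 0.07 (adjusted p = 7.93e-08, limma). PERP, which is also part of desmosomes, rose by 0.87 ± 0.07 (adjusted p = 3.57e-07, limma). TGFβ raised CDKN1A by 1.06 in siControl and by 0.76 in siPHF13 cells. Of 6 enzymes known to add ubiquitin to MCL1 protein or remove it, 1 rose and 4 fell after depletion. FBXW7, part of a ligase for MCL1, rose by 0.77 ± 0.09 (adjusted p = 1.64e-05, limma). Depletion changed CUL5 by -0.576 without TGFβ (adjusted p = 1.79e-05, limma) and by -0.615 with it (adjusted p = 8.73e-06, limma). Protein levels were not measured in these libraries.

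**Figure D5:**
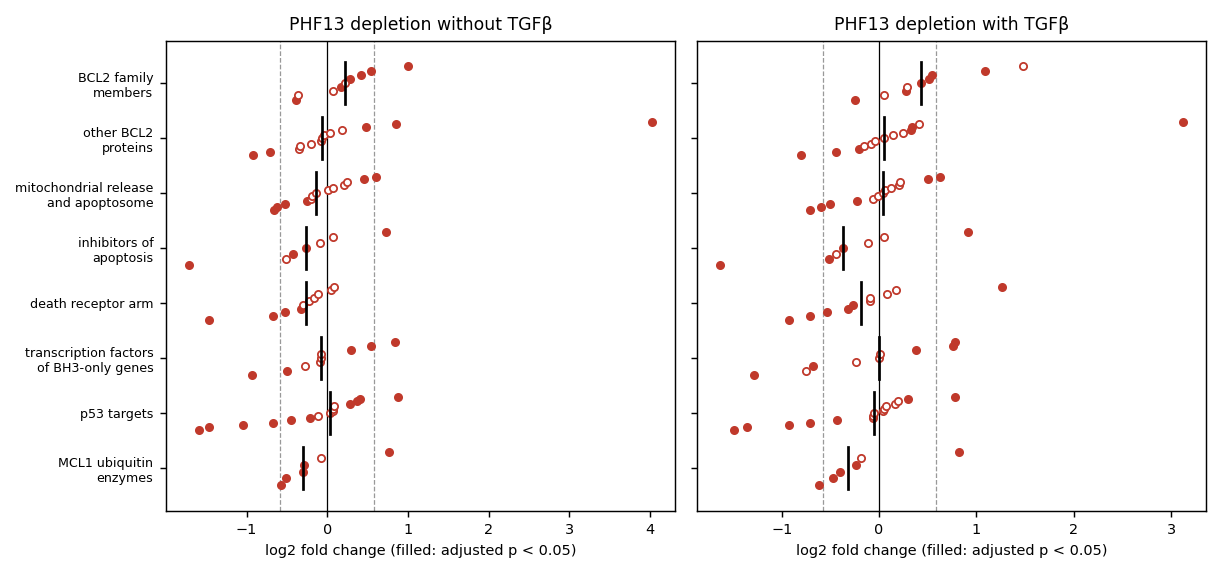
Log2 fold change of each measured gene of the BCL2 family and of 7 lists of related genes after PHF13 depletion without TGFβ (left) and with it (right). Filled points have a limma adjusted p under 0.05, dashed lines mark 0.58 either way and black bars mark the list's median. The family's median is 0.22 and 0.43, and each list holds genes on both sides of 0.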

How the data were processed

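mRNA of Panc-1 cells was sequenced in 4 groups of 2 libraries, assigned by the sample titles. The authors trimmed paired-end reads with Trim Galore 0.4.1, mapped them to hg19 with STAR 2.7.0, counted reads on exons with HTSeq 0.12.4 and normalized with DESeq2. The values deposited by the authors are a signal per gene, the count divided by the library's size factor. The gene annotation's release and the strand setting are not given in the sources used here. Tables of the authors' own comparisons (log2 fold changes and p-values) were not used. Columns of the table carry short codes, of which those for a non-targeting siRNA were read as siControl and a final T as TGFβ.

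All values (100%) were whole multiples of 1 step per library within 1e-06 reads, which gave the depths. The variance between replicates was 3.64 to 23.3 times the counting variance.

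A limma fit (3.58.1, R 4.3.3) with a trended prior on log2(normalized count + 1) over all 8 libraries gave the comparisons, two-sided, with Benjamini-Hochberg adjustment over 13307 genes. Fold changes on this scale understate changes of low genes. After the study's methods, a changed gene had an adjusted p under 0.05 and a log2 fold change beyond 0.58 either way. With 2 libraries against 2 an exact permutation test cannot go below p = 0.333, so none is given. The procedure was tested on simulated data.

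The members and gene lists were chosen with earlier results of these data known. Named are the members, PHF13, up to 4 changed genes of each list and the 3 genes most like the member of widest range. Gene positions and lengths are from GENCODE on GRCh37, and promoters from RefSeq on GRCh38.p14.

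Alternatives were a pseudocount of 5, a minimum mean of 100, TMM scaling, only the libraries compared, a replicate block, removal of GC content and length by splines of 5 degrees of freedom, both together, no fold threshold, edgeR 4.0.16 and DESeq2 1.42.0 on the whole reads, and each library left out in turn.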

Additional observations from a re-analysis of the deposited data

Results flagged for a closer look

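The response of BMF to TGFβ was smaller in siPHF13 than in siControl cells, by -0.80 on the log2 scale, in the test of the difference itself (adjusted p = 0.0316, limma). The difference missed the threshold in 6 of the 8 fits with 1 library left out, those without a siControl library or an untreated siPHF13 library, with a highest adjusted p (limma) of 0.272 without siControl replicate 2. The 2 siPHF13 libraries with TGFβ, at 2232.5 and 1890.3 normalized counts, overlapped the 2 siControl libraries with TGFβ, while the untreated libraries were higher in siPHF13 cells. The cause was not tested.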

How the results depend on the processing

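Over 45 estimates (9 members, 5 comparisons) the alternatives gave 751 values, of which 695 kept direction and side of the threshold. Of the 13 estimates past the adjusted p, 9 were the same in every alternative and 0 changed sign. The 33 changes of sign were all among estimates that had not passed.

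Without a threshold on the fold, 6 members counted as changed after depletion without TGFβ, where 23.1% of all genes rose and 24.3% fell. Depletion with TGFβ gave 6 (24.5% and 25.9%), and TGFβ in siControl cells gave 1 (9.21% and 6.67%). With the threshold, the main fit called 18.4% of all genes after depletion without TGFβ and 20.5% with it. Shares of all genes under the other alternatives were not counted. The correction for GC content and length gave 2 changed members after depletion with TGFβ (BCL2L1 and BCL2), and 1 with a replicate block added. With the libraries compared alone, 3 members passed the adjusted p for TGFβ in siControl cells (MCL1, BCL2L11 and BID). Leaving out 1 library gave 1 to 2 changed members after depletion without TGFβ and 1 to 3 with TGFβ, and 0 to 2 and 0 to 1 members past the adjusted p for TGFβ in siControl and in siPHF13 cells.

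Apart from those of BCL2, the estimates that changed sign lay near 0. The correction for GC content and length, with or without a replicate block, gave -0.013 for BCL2L1, -0.0091 for BAX and -0.024 for BAK1 with TGFβ in siPHF13 cells, -0.0095 for BBC3 after depletion without TGFβ, and -0.066 for BAX and 0.030 for BCL2L11 in the difference of responses. Leaving out 1 library in turn, depletion without TGFβ ranged from -0.87 to 0.14 for BCL2 and from -0.051 to 0.19 for BBC3, and depletion with TGFβ from -0.070 to 0.17 for BMF. TGFβ in siControl cells ranged from -0.10 to 0.048 for BCL2L1, -0.022 to 0.11 for BAX and -0.11 to 0.13 for BBC3. TGFβ in siPHF13 cells ranged from -0.26 to 0.75 for BCL2, -0.014 to 0.13 for BCL2L1, -0.020 to 0.12 for BAX, -0.015 to 0.11 for BAK1 and -0.018 to 0.16 for PMAIP1. The difference of responses ranged from -0.064 to 0.075 for BAX and from -0.12 to 0.11 for BCL2L11. Their causes were not tested.

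On its own the replicate block changed no call of a member: 1 member was changed after depletion without TGFβ and 1 with it, as without the block. Added to the correction for GC content and length, it lost BCL2 after depletion with TGFβ (adjusted p from 0.0476 to 0.0595, limma), and members past the adjusted p went from 8 to 7. The deviations of libraries with the same number correlated between -0.089 and 0.050 over genes. Such correlations cannot show whether these libraries share a culture or a batch. GC content and the log2 fold change had a Spearman correlation over 12317 genes of 0.124 for depletion without TGFβ and 0.143 with it, a description across genes. BCL2, with 3 to 26 reads per library, and BCL2L10 are limited by depth.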
